A study of Mus musculus with 9 samples.

Results

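The expression of 46 genes that copy DNA or carry out cell division was followed in 9 RNA-seq libraries of mouse B cells. The genes came from a list of names, and all 46 of them were found among the 22178 genes of the deposited table. They are described as 23 replication genes (helicase, polymerase, nucleotide supply and S phase entry, with both cyclin E genes and E2f1) and 23 mitosis genes. Values are TPM, the usual length-corrected share of a library's transcripts.

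There were 3 groups of 3 libraries, all from mice of a backcrossed C57BL/6 background. B2 cells, the conventional B cells, were from spleen under the strain label VH12B1-8/Vk4. B1 cells, the class of B cells typical of body cavities, were from the peritoneal cavity under the strain label B1-8VH12/Vk4. B2B1 cells were also peritoneal with the strain label B1-8VH12/Vk4, and their B cell receptor (BCR) had been switched by induction around 30 days earlier. VH12 and Vk4 name a heavy and a light chain variable region that together bind phosphatidylcholine and are typical of B1 cells. The agent that induced the switch, ages and sexes were not found in the labels. B2 differs from the other groups in tissue and strain label as well as in cell class, and these cannot be told apart. Whether each library of a group stems from its own mouse is left unsaid in the labels. The p-values thus reflect only how these samples spread, a spread that may be technical at least in part.

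Resting lymphocytes hold few transcripts of the division machinery and make them on entering the cell cycle. Replication genes are switched on late in G1 by E2F transcription factors, and mitosis genes follow in G2 through B-MYB and FOXM1, whose complex binds a short promoter element called the CHR (cell cycle genes homology region), often beside CCAAT boxes bound by NF-Y. B1 cells are known for self-renewal in the adult peritoneal cavity, whereas conventional B2 cells are mostly at rest until they meet antigen. In bulk RNA, fewer cycling cells and less RNA per cycling cell cannot be told apart.

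The labelled cell classes were checked against their markers. The 8 B cell markers summed to 9449 to 11580 TPM per library. The 8 B-1 markers (Zbtb32, Cd9, S100a6 and others) summed to 31.1 to 37.9 TPM in B2, 3092 to 3499 TPM in B2B1 and 3723 to 4611 TPM in B1. Cd5, a defining B-1a marker among them, stood at 1.22 to 1.85 TPM in B2B1, close to B2 (0.609 to 1.09 TPM), and at 13.4 to 22.9 TPM in B1. TPM keep no read counts, so the depth is unknown, and the genes listed summed to 894515 to 943043 TPM per library. Ddx3y (Y-linked) was at 56.9 to 75.3 TPM, with Xist near 0, in 3 libraries: B2 library 2, B2B1 library 1 and B2B1 library 2. The other 6 had the female pattern. B2 and B2B1 thus each held libraries of both sexes, which cannot all stem from the same mouse. All B1 libraries had the female pattern, so sex was not balanced between the groups. B1 library 2 and B2B1 library 1 stood apart from their groups in the genes described here. Counts that rest on them are given with and without them, and they were picked out because of these very genes, after the values were seen.

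Promoters of the members on which the results turn are shown first, because replication and mitosis genes are known for different promoter elements. RefSeq promoters (GRCm38.p6) were found for 37 of the 46 genes, and the 250 bases before the first listed start were searched on both strands. For 32 of the 37 the bases after that start were found in a transcript of the gene. The windows of E2f1, Mcm7 and Cdc6 lay within the annotated span of the gene itself and are counted below all the same. Capitals mark TTCGCGC or TTGGCGC (E2F), TTTGAA or TTCGAA (CHR) and CCAAT, or their reverse complements. Matches may overlap, as TTGGCGC on the other strand ends in the letters CCAA. Mcm6 (chr1:128359706-128359955, minus strand), Rrm2 (chr12:24708004-24708253, plus strand) and Cdt1 (chr8:122567765-122568014, plus strand) are replication genes, the first a pair with higher and the last with lower values in B2B1. Mki67 (chr7:135716380-135716629, minus strand), Top2a (chr11:99024190-99024439, minus strand), Cdk1 (chr10:69352913-69353162, minus strand) and Kif11 (chr19:37376132-37376381, plus strand) are mitosis genes with higher values in B2B1.
Mcm6: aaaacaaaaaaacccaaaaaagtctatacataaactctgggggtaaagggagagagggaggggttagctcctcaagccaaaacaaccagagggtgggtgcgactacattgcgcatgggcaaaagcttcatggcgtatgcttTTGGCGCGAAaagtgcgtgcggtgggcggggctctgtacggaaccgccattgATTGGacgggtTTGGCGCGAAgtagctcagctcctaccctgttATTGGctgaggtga
Rrm2: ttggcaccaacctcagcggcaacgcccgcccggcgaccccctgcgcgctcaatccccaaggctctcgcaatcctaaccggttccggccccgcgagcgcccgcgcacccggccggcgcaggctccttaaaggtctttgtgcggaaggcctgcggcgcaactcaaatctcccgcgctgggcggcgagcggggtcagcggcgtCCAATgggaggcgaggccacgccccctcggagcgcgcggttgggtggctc
Cdt1: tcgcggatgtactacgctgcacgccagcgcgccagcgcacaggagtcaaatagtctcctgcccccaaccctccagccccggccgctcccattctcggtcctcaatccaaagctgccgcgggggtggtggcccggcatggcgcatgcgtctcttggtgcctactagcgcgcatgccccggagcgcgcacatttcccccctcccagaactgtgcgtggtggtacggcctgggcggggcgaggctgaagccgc
Mki67: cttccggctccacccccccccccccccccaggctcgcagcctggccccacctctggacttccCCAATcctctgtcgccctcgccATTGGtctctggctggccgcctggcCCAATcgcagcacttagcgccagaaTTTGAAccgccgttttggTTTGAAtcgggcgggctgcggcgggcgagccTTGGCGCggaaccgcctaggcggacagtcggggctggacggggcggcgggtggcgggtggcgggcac
Top2a: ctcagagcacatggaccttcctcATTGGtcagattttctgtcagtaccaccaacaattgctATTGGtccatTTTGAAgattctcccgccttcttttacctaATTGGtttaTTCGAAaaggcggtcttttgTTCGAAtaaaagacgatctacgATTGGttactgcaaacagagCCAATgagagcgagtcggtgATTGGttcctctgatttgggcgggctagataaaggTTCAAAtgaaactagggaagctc
Cdk1: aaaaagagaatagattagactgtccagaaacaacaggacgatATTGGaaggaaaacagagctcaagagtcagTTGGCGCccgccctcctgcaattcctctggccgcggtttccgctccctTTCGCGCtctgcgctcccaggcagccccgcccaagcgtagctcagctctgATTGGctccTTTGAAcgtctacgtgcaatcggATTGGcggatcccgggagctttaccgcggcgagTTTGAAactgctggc
Kif11: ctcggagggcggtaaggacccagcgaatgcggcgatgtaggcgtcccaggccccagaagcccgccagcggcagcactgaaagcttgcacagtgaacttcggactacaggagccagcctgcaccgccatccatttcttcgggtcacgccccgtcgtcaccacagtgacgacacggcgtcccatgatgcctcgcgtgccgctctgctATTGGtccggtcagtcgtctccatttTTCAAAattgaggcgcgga

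In these windows Mcm6 held overlapping E2F letters at both of its E2F places and no CHR, whereas Top2a held 4 CHR matches and 6 CCAAT boxes. Kif11 had 1 CHR 19 bases and 1 CCAAT box 45 bases before its start. Cdk1 and Mki67 held all 3 motifs, Rrm2 held a CCAAT box alone, and Cdt1 held none of these letters. Among the mitosis promoters 9 of 18 (50.0%) held a CHR and 16 (88.9%) a CCAAT box, and among the replication promoters 3 of 19 (15.8%) and 13 (68.4%). Of all 27025 promoters of the same length, 17.4% held a CHR and 34.5% a CCAAT box, and among those of genes tested 12.4% and 37.2%. E2F letters were in 3 of 18 mitosis and 3 of 19 replication promoters, against 3.2% of all promoters and 6.1% of those of tested genes. Only TTCGCGC and TTGGCGC were searched, so other E2F forms were missed and these counts do not compare E2F sites between the lists. A match is a description of letters and does not show binding.

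In plain terms, the mitosis genes were low in all B2 libraries, high in all B2B1 libraries and split among the B1 libraries. The 23 mitosis genes summed to 46.7, 51.4 and 52.1 TPM in B2, 234, 105.3 and 101.5 TPM in B2B1 and 48.8, 176.5 and 53.4 TPM in B1. All 3 B2B1 libraries lay above all B2 libraries, and in B1 the second library alone lay above B2B1 libraries 2 and 3 while the other B1 libraries lay near B2. The 23 replication genes summed to 561, 531 and 559 TPM in B2, 706, 588 and 542 TPM in B2B1 and 453, 759 and 444 TPM in B1. Replication genes were well expressed in splenic B2 cells, and B1 libraries 1 and 3 were the lowest of the 9.

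**Figure D1:**
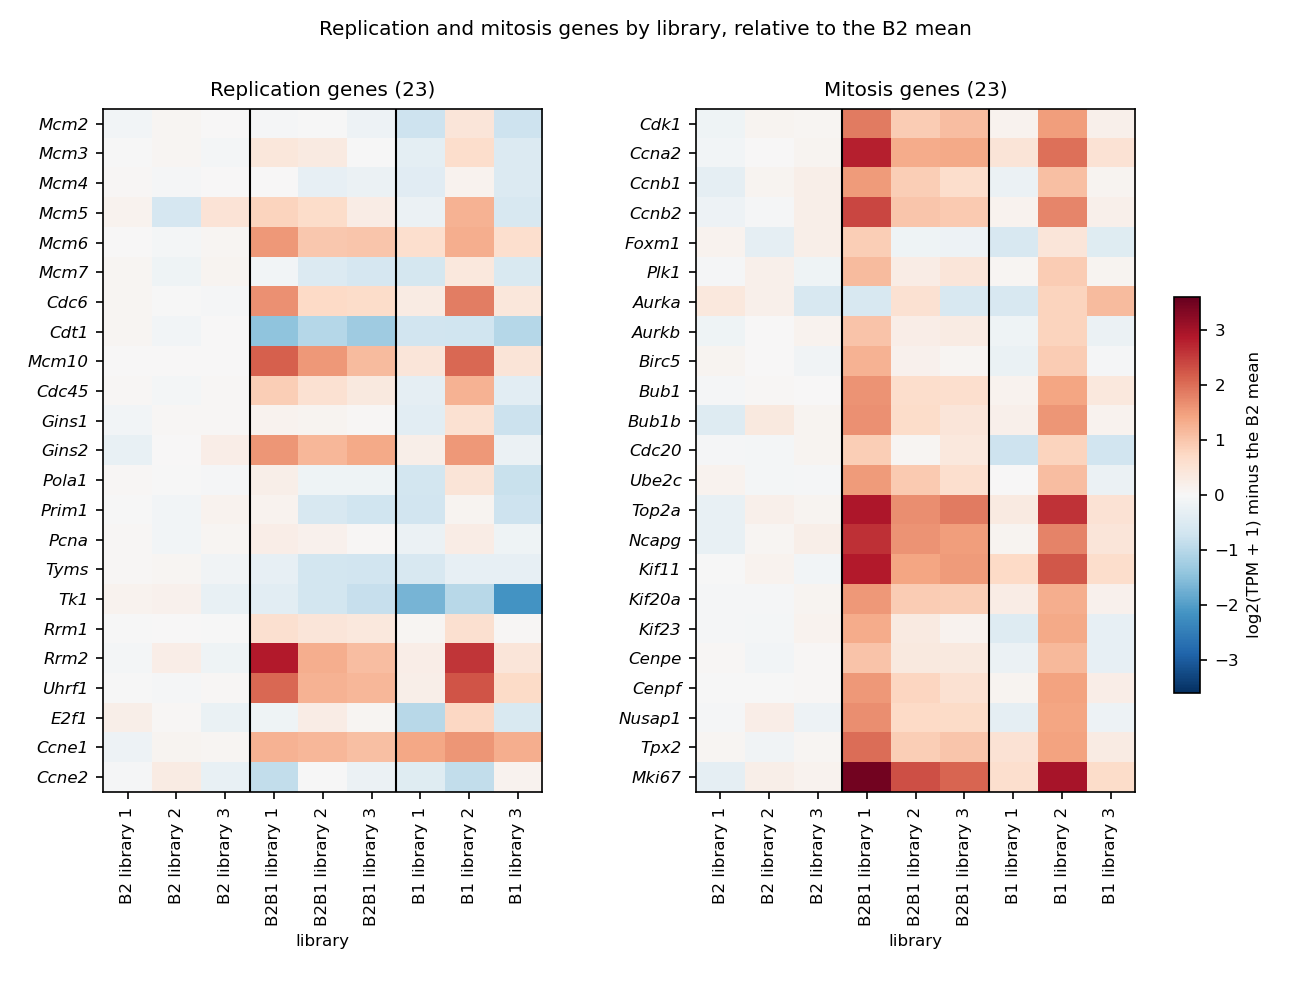
Heat map of the 23 replication genes (left) and the 23 mitosis genes (right) in the 9 libraries. Colour gives log2(TPM + 1) minus the mean of the 3 B2 libraries of that gene, and black lines part the groups. Most mitosis genes are red in the B2B1 libraries and in B1 library 2, except Aurka, which is scattered, and Foxm1 in B2B1 libraries 2 and 3, while the replication genes hold red rows (Mcm6, Rrm2, Uhrf1, Ccne1) and blue rows (Cdt1, Tyms, Tk1).

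Differences were tested with limma on log2(TPM + 1) for 11099 genes, those whose TPM averaged at least 1 over the 9 libraries, and a gene was called at a Benjamini-Hochberg adjusted p under 0.05 over all of them. Fold changes on this scale understate those of low genes. Below, a gene called or not called is so in this fit unless another setting is named. Of the 46 members 42 were tested, 22 replication and 20 mitosis genes. Ccne2, Aurka, Bub1 and Cenpf stayed below the minimum. Among the tested members, 2 replication genes (Mcm10 and Cdc6) and 5 mitosis genes (Cdk1, Kif11, Cenpe, Tpx2 and Ncapg) averaged under 1 TPM in B2 and reached the minimum through the peritoneal libraries. B1 and B2B1 were compared with the same B2 libraries, so the 2 comparisons are not independent.

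In B2B1 against B2, 7 of 22 tested replication genes were called higher and 2 lower, and 11 of 20 tested mitosis genes were called higher and 0 lower. Over all genes tested 21.0% were called higher and 42.0% lower. The mitosis share lay above the background of higher calls and the replication share nearer to it. The median log2 fold change was 1.03 for the mitosis genes and 0.19 for the replication genes, beside −0.193 for all genes tested. All B2B1 libraries lay above all B2 libraries for 17 of 20 mitosis genes (all but Birc5, Cdc20 and Foxm1) and 9 of 22 replication genes, beside 24.5% of all genes tested. Of the 15 mitosis genes that averaged at least 1 TPM in B2, 7 were called higher. With no minimum, which takes in the 23 genes of each list, 10 mitosis and 6 replication genes were called higher. That setting called 2537 of 16510 genes higher. Without B2B1 library 1, the higher calls were 7 mitosis and 5 replication genes, beside 18.6% of all genes tested, with medians of 0.77 and 0.17.

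The comparison of B1 with B2 gave another picture. Of the replication genes 2 were called higher and 3 lower, and of the mitosis genes 0 were called by limma, with 2 at an unadjusted p under 0.05. Background shares were 18.0% higher and 33.9% lower, and 6421 of 11099 genes had an unadjusted p under 0.05. The mitosis median was 0.47 and the replication median −0.05, beside −0.135 for all genes tested. Without B1 library 2 the replication genes had 2 higher and 11 lower calls (18.1% and 35.4% of all genes tested), with a median of −0.41, and the mitosis genes 0 higher and 1 lower, with a median of 0.11. Without B2B1 library 1, which enters the shared spread, 2 mitosis genes were called higher in B1, Kif11 (1.19 on the log2 scale) and Tpx2 (0.76). That setting called 2043 of 11099 genes higher in B1.

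In the direct comparison of B2B1 with B1, 1 replication gene was called higher (Tk1) and 1 lower (Cdt1), and 0 mitosis genes were called by limma (1 at an unadjusted p under 0.05). Background shares were 6.93% higher and 12.1% lower, and 3782 of 11099 genes had an unadjusted p under 0.05. Without B1 library 2 there were 13 replication and 11 mitosis genes called higher and 0 lower, beside 9.18% of all genes tested. With B2B1 library 1 left out as well the counts were 14 and 15, beside 7.95%. Without B2B1 library 1 alone, 0 members of either list were called, with 4 replication and 0 mitosis genes at an unadjusted p under 0.05. Over all 11099 genes, 559 were then called higher and 926 lower, and 3248 had an unadjusted p under 0.05.

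The scale matters for small differences. Median-of-ratios scaling moved the median of all genes from −0.135 to 0.0106 in B1 against B2 and from −0.193 to 0.0178 in B2B1 against B2, and the calls over all genes from 2003 higher and 3762 lower to 2843 and 2464, and from 2332 and 4663 to 3494 and 3031. In B2B1 against B1 they moved from 769 and 1339 to 1087 and 894. Quantile normalization gave 2477 and 2867, 2973 and 3538, and 912 and 983, in the same order of comparisons. Relative to the median of all genes, the mitosis median in B2B1 against B2 was 1.22 higher with TPM, 1.20 with this scaling and 1.18 with quantile normalization. In B1 against B2 it was 0.61, 0.55 and 0.40 higher. The replication median relative to all genes was 0.38, 0.40 and 0.42 in B2B1 against B2, and 0.08, 0.09 and 0.12 in B1 against B2, where the list's own median turned from −0.05 to 0.10 and 0.08. No called member changed direction under either scaling, and Tyms in B1 against B2 and Cdt1 in B2B1 against B1 lost their calls under both.

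**Figure D2:**
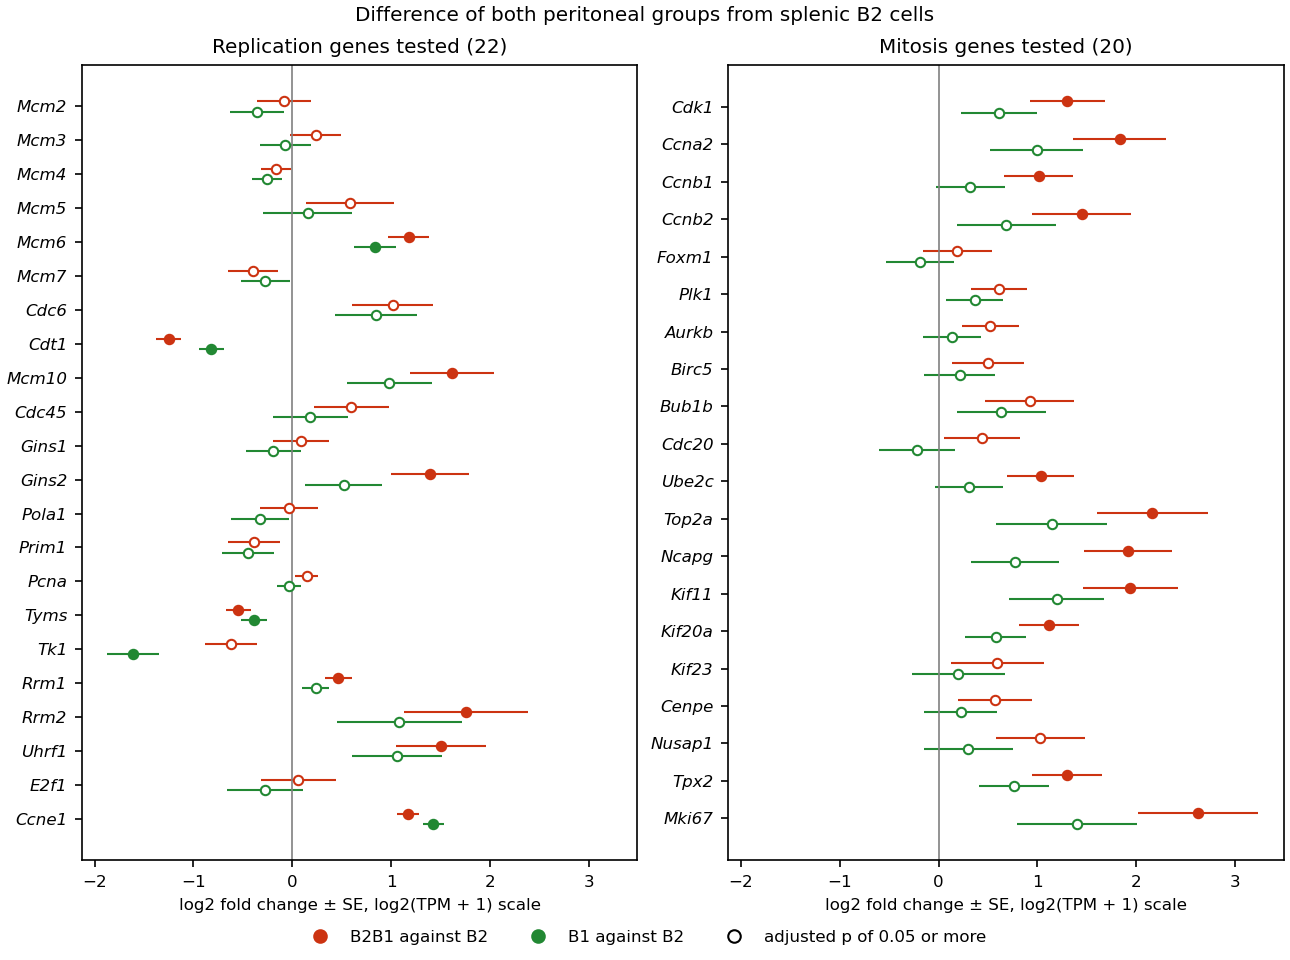
Log2 fold change on the log2(TPM + 1) scale with its standard error, for the 22 replication genes (left) and 20 mitosis genes (right) tested, with B2B1 against B2 in red and B1 against B2 in green. Filled points have an adjusted p under 0.05. Mki67 (2.63) lies farthest right in B2B1 and Tk1 (−1.61) farthest left in B1, and the position of Mcm10, listed at 0 in B2, depends on the pseudocount.

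The genes that load the replicative helicase came first by role. The MCM complex, subunits Mcm2 to Mcm7, is placed on origins in G1 by Cdc6 and Cdt1. Mcm6 stood at 32.3, 30.1 and 33.6 TPM in B2, 96.2, 63.7 and 64.8 TPM in B2B1 and 49.1, 81.1 and 49.1 TPM in B1. Every peritoneal library lay above every B2 library. The log2 fold change was 1.18 ± 0.21 (SE, limma adjusted p = 0.00114) in B2B1 and 0.84 ± 0.21 (SE, limma adjusted p = 0.00913) in B1. The remaining subunits were not called. Mcm2 stood at 23.3, 26.5 and 25.2 TPM in B2, 24.2, 24.5 and 21.7 TPM in B2B1 and 14.5, 34.0 and 14.5 TPM in B1, and Mcm3 at 30.4, 32.3 and 29.4 TPM in B2, 40.7, 38.5 and 30.6 TPM in B2B1 and 23.6, 48.6 and 21.6 TPM in B1. For both genes B1 library 2 was the highest and B1 libraries 1 and 3 the lowest of the 9 libraries. Mcm5 stood at 13.9, 8.03 and 18.4 TPM in B2, 23.2, 20.9 and 15.6 TPM in B2B1 and 10.9, 31.7 and 8.29 TPM in B1, with wide spread in each group. Mcm4 ranged over 33.4 to 35.2 TPM in B2, 27.7 to 35.1 TPM in B2B1 and 24.4 to 37.5 TPM in B1, and Mcm7 over 39.3 to 47.0 TPM in B2, 28.6 to 41.1 TPM in B2B1 and 27.9 to 57.3 TPM in B1. None of these 5 subunit genes was called, with log2 fold changes from −0.40 (Mcm7) to 0.58 (Mcm5) in B2B1 and from −0.35 (Mcm2) to 0.16 (Mcm5) in B1. With B1 library 2 left out, Mcm2, Mcm3, Mcm4 and Mcm7 were called lower in B1, at −0.75, −0.43, −0.44 and −0.59 on the log2 scale, and Mcm7 lower in B2B1 (−0.40). Weighting the libraries by their spread also gave lower calls to Mcm2 (−0.57) and Mcm4 (−0.36) in B1 and to Mcm7 in B2B1 (−0.48), and Mcm7 was called in B2B1 with only the 2 groups compared (−0.40).

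The balance of the MCM transcripts differed between the splenic B2 libraries and the peritoneal libraries. Mcm6 divided by the geometric mean of the other 5 subunit genes was 1.17, 1.23 and 1.14 in B2, 3.02, 2.28 and 2.64 in B2B1 and 2.54, 1.99 and 2.73 in B1. Every peritoneal library lay above every B2 library, and B1 library 2 had the lowest of the B1 ratios. The ratio was computed after the single genes had been seen. A ratio within a library shows that its parts differed unequally and not which of them moved.

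**Figure D3:**
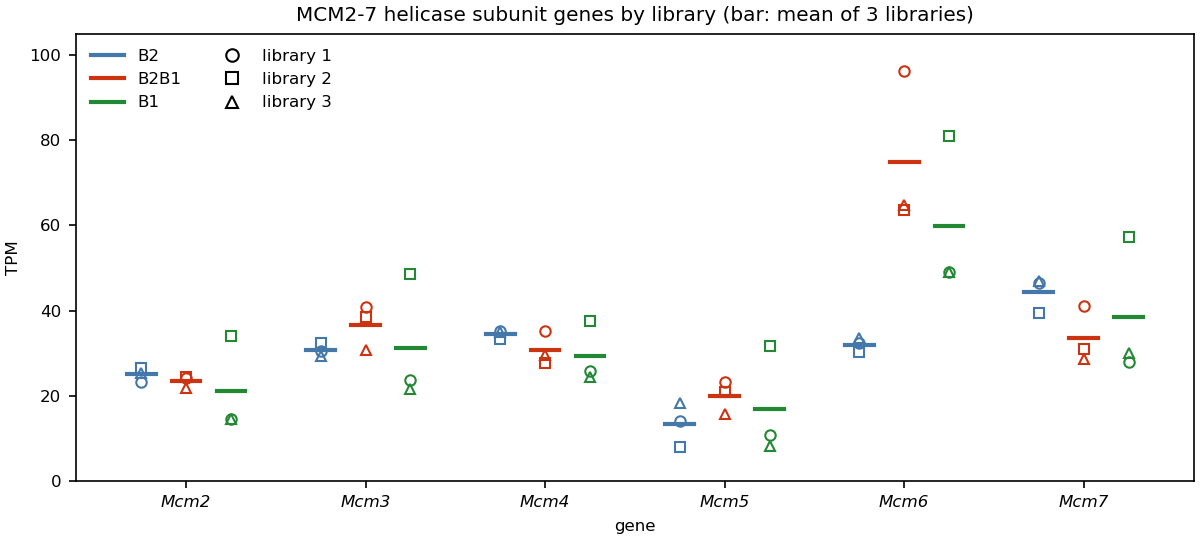
TPM of the 6 MCM helicase subunit genes in each library (symbols for library 1, 2 and 3) with the group mean as a bar, linear axis from 0. Mcm6 is higher in all 6 peritoneal libraries (49.1 to 96.2 TPM) than in B2 (30.1 to 33.6 TPM), while for each other subunit the groups overlap and B1 library 2 is the top B1 point.

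Of the loading factors, Cdt1 fell and Cdc6 lay near the threshold. Cdt1, whose protein brings MCM to origins, stood at 59.0, 52.0 and 56.0 TPM in B2, 19.8, 27.0 and 22.2 TPM in B2B1 and 33.8, 33.2 and 26.6 TPM in B1. Every peritoneal library lay below every B2 library. The log2 fold change was −1.25 ± 0.13 (SE, limma adjusted p = 3.78e-05) in B2B1 and −0.82 ± 0.13 (SE, limma adjusted p = 0.000668) in B1, and the call held under each of the 19 alternative settings in both comparisons. In B2B1 against B1 it was −0.43 ± 0.13 (SE, limma adjusted p = 0.0471), with groups that overlap, and that call was lost under 14 of the 19, among them leaving out any single B2 library (−0.43), B2B1 library 1 (−0.33) or 3 (−0.41), or B1 library 1 (−0.37) or 2 (−0.38). Cdc6, the ATPase that works with it, was near 0 in B2 and stood at 0.359, 0.287 and 0.273 TPM in B2, 3.12, 1.16 and 1.07 TPM in B2B1 and 0.611, 3.64 and 0.738 TPM in B1. B2B1 library 1 and B1 library 2 were the highest, and the log2 fold change in B2B1 was 1.02 ± 0.41 (SE, limma adjusted p = 0.0563). It was called there without B1 library 2 or with only the 2 groups compared (both 1.02), with library weights (0.88), with median-of-ratios scaling (1.10) and with a pseudocount of 0.1 (2.05) or 0.5 (1.39).

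Helicase activation and DNA synthesis come next. Mcm10, which helps start the helicase, was listed at 0, 0 and 0 TPM in B2, 3.40, 1.94 and 1.21 TPM in B2B1 and 0.354, 3.16 and 0.370 TPM in B1. B2B1 library 1 and B1 library 2 were the highest, and every peritoneal library lay above B2. It was called higher in B2B1 (limma adjusted p = 0.00922) and not in B1, where it was called with a pseudocount of 0.1 or 0.5. No fold is given against values listed at 0. Gins2, a subunit of the GINS part of the active helicase, stood at 1.95, 2.55 and 3.20 TPM in B2, 9.70, 7.16 and 8.12 TPM in B2B1 and 3.10, 9.43 and 2.02 TPM in B1. B2B1 lay above B2 in every library, by 1.39 ± 0.39 (SE, limma adjusted p = 0.0121), whereas B1 libraries 1 and 3 lay within the B2 range. Of the exonic bases of Gins2, 67.3% overlap Gse1 on the opposite strand, and the library kit does not mark strand, so reads of these genes cannot be told apart. Gins1 (3.32 to 3.79 TPM in B2, 3.71 to 4.04 TPM in B2B1 and 1.72 to 5.78 TPM in B1) and Cdc45 (3.27 to 3.70 TPM in B2, 4.78 to 7.44 TPM in B2B1 and 2.51 to 9.70 TPM in B1), the partners of Gins2 in the active helicase, were not called. When B1 library 2 was left out, Gins1 was called lower in B1 (−0.56) and Cdc45 higher in B2B1 (0.60, also with only the 2 groups compared).

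The clamp, polymerase alpha and primase genes among the members were not called, though other settings called them. Pcna, the sliding clamp of replication and repair, was the most abundant member and stood at 175, 159 and 177 TPM in B2, 199, 190.0 and 176 TPM in B2B1 and 147, 205 and 151 TPM in B1. The groups overlapped, and the log2 fold change was 0.14 ± 0.12 in B2B1 and −0.04 ± 0.12 in B1, neither of them called. With median-of-ratios scaling Pcna was called higher in B2B1 (0.37). Pola1, the catalytic subunit of polymerase alpha, ranged over 4.89 to 5.27 TPM in B2, 4.44 to 6.03 TPM in B2B1 and 2.50 to 7.38 TPM in B1, and Prim1, the primase that works with it, over 20.0 to 23.9 TPM in B2, 12.7 to 23.9 TPM in B2B1 and 12.4 to 23.2 TPM in B1. Both were called lower in B1 without B1 library 2 (both −0.72), and Prim1 lower in B2B1 without B2B1 library 1 (−0.65). Library weights called Pola1 lower in B1 (−0.55) and Prim1 lower in B1 (−0.60) and B2B1 (−0.51).

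Nucleotide supply split into genes that were higher and genes that were lower in the peritoneum. Rrm2, the cell cycle dependent subunit of ribonucleotide reductase, stood at 2.70, 3.53 and 2.46 TPM in B2, 27.2, 8.59 and 7.29 TPM in B2B1 and 3.61, 21.8 and 4.22 TPM in B1. All B2B1 libraries lay above all B2 libraries, and B1 library 2 lay 2.22 above the mean of the other B1 libraries on the log2 scale, the largest such gap among the replication genes. The log2 fold change in B2B1 was 1.76 ± 0.63 (SE, limma adjusted p = 0.0354). That call was lost without B2 library 1 (1.73), 2 (1.87) or 3 (1.68) and without B2B1 library 1 (1.20). It was also lost with no minimum (1.76). Rrm1, the catalytic subunit, which is less tied to the cycle, stood at 22.5, 22.8 and 22.5 TPM in B2, 34.3, 30.7 and 29.9 TPM in B2B1 and 24.0, 34.5 and 23.3 TPM in B1. It was higher in B2B1 by 0.46 ± 0.14 (SE, limma adjusted p = 0.0147) with no overlap, and not called in B1 (0.24 ± 0.14), where median-of-ratios scaling (0.39) and quantile normalization (0.36) called it higher.

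The thymidine genes were lower in the peritoneum. Tk1, thymidine kinase of the salvage pathway, stood at 44.9, 46.2 and 34.2 TPM in B2, 31.8, 25.7 and 22.9 TPM in B2B1 and 12.4, 20.1 and 8.49 TPM in B1. Both peritoneal groups lay below B2 in every library, and B1 lay below B2B1 in every library. Its log2 fold change was −1.61 ± 0.26 (SE, limma adjusted p = 0.000885) in B1 and −0.62 ± 0.26 (SE, limma adjusted p = 0.0642) in B2B1, where it missed the threshold. Without B1 library 2 or B1 library 3 it was called lower in B2B1 too, with the same −0.62, and so it was with only the 2 groups compared and with library weights (−0.68). B2B1 against B1 gave 0.99 ± 0.26 (SE, limma adjusted p = 0.0315), a call lost without B2 library 1 (0.99), B2B1 library 1 (0.86) or 2 (1.01), or B1 library 1 (0.96) or 3 (0.71). It was also lost with no minimum and with only the 2 groups compared (both 0.99). Tyms, thymidylate synthase of the de novo pathway, stood at 19.7, 20.1 and 17.2 TPM in B2, 15.3, 11.6 and 11.5 TPM in B2B1 and 12.4, 15.2 and 15.4 TPM in B1. Every peritoneal library lay below every B2 library, with log2 fold changes of −0.55 ± 0.13 (SE, limma adjusted p = 0.00535) in B2B1 and −0.39 ± 0.13 (SE, limma adjusted p = 0.0323) in B1. The B1 call was lost without B2 library 1 (−0.36) or 2 (−0.35) or B1 library 1 (−0.29), with no minimum (−0.39), and under median-of-ratios scaling (−0.24) and quantile normalization (−0.28).

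S phase entry and chromatin copying were represented by cyclin E, E2f1 and Uhrf1. Ccne1, cyclin E1, which activates Cdk2 at the start of S phase, stood at 11.0, 13.7 and 13.4 TPM in B2, 31.3, 30.1 and 27.9 TPM in B2B1 and 34.8, 40.2 and 32.5 TPM in B1. All peritoneal libraries lay above all B2 libraries. Differences were 1.17 ± 0.11 (SE, limma adjusted p = 2.04e-05) in B2B1 and 1.43 ± 0.11 (SE, limma adjusted p = 8.81e-06) in B1, and B1 library 2 was only modestly above the other B1 libraries, by 0.25 on the log2 scale. Ccne2, cyclin E2, was between 0 and 1.26 TPM and was not tested. E2f1, an activator of replication genes, stood at 2.82, 2.42 and 1.83 TPM in B2, 1.97, 3.01 and 2.52 TPM in B2B1 and 0.653, 4.55 and 1.28 TPM in B1. B1 library 2 was the highest and B1 libraries 1 and 3 the lowest, and E2f1 was not called (−0.27 ± 0.38 in B1, 0.06 ± 0.38 in B2B1). Leaving out B1 library 2 gave a lower call in B1, at −0.78.

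Uhrf1, which brings the maintenance methyltransferase Dnmt1 to newly copied DNA, stood at 5.80, 5.66 and 6.11 TPM in B2, 27.9, 15.2 and 14.7 TPM in B2B1 and 6.98, 31.8 and 10.2 TPM in B1. Every peritoneal library lay above every B2 library. In B2B1 the log2 fold change was 1.50 ± 0.46 (SE, limma adjusted p = 0.0181), a call lost without B2B1 library 1 (1.22). In B1 it was 1.06 ± 0.46 (SE, limma adjusted p = 0.0813), which missed the threshold but passed it without B1 library 1 (1.48).

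The mitosis genes began with the cyclins and their kinase. Ccna2, cyclin A2, which works from S phase to early mitosis, stood at 1.14, 1.31 and 1.49 TPM in B2, 14.9, 4.82 and 4.98 TPM in B2B1 and 2.19, 8.10 and 2.32 TPM in B1. Every peritoneal library lay above every B2 library, with B2B1 library 1 and B1 library 2 far above their groups. The log2 fold change was 1.83 ± 0.47 (SE, limma adjusted p = 0.00799) in B2B1 and 0.99 ± 0.47 in B1, the latter not called. Cdk1, the kinase that drives entry into mitosis, stood at 0.270, 0.506 and 0.479 TPM in B2, 4.19, 1.68 and 2.06 TPM in B2B1 and 0.532, 3.03 and 0.619 TPM in B1. It was higher in B2B1 by 1.30 ± 0.38 (SE, limma adjusted p = 0.0153), with no overlap, a call lost without B2B1 library 1 (1.02). B1 libraries 1 and 3 exceeded the highest B2 library by little.

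The B cyclins, partners of Cdk1, were less firm. Ccnb1, cyclin B1, stood at 0.621, 1.17 and 1.33 TPM in B2, 4.81, 2.74 and 2.11 TPM in B2B1 and 0.756, 3.26 and 1.14 TPM in B1, and Ccnb2, cyclin B2, at 1.07, 1.31 and 1.76 TPM in B2, 11.5, 3.75 and 3.52 TPM in B2B1 and 1.56, 7.03 and 1.66 TPM in B1. All B2B1 libraries lay above all B2 libraries for both genes, and B1 library 2 alone stood out in B1. Ccnb1 was higher in B2B1 by 1.01 ± 0.35 (SE, limma adjusted p = 0.0309) and Ccnb2 by 1.45 ± 0.50 (SE, limma adjusted p = 0.0304). Ccnb1 lost its call without B2 library 1 (0.85) or 2 (1.07) or B2B1 library 1 (0.76) or 2 (1.07), and Ccnb2 without B2 library 1 (1.35), 2 (1.43) or 3 (1.56) or B2B1 library 1 (0.97). With no minimum Ccnb2 lost its call too (1.45). Foxm1, a transcription factor of mitosis genes, stood at 3.96, 2.67 and 4.25 TPM in B2, 7.52, 3.10 and 3.05 TPM in B2B1 and 2.07, 5.18 and 2.40 TPM in B1. Its groups overlapped and it was not called, with 0.19 ± 0.35 in B2B1 and −0.19 ± 0.35 in B1.

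Mki67 had the largest log2 fold change among the 42 tested members on the log2(TPM + 1) scale. This rank depends on the pseudocount, which weighs most on genes near the floor in B2, such as Mcm10. Mki67 encodes the Ki-67 protein that coats mitotic chromosomes and is absent from resting cells. Mki67 stood at 1.10, 2.04 and 1.88 TPM in B2, 28.2, 12.2 and 10.3 TPM in B2B1 and 2.98, 19.4 and 3.19 TPM in B1. No B2B1 library came below 10.3 TPM and no B2 library rose above 2.04 TPM. The log2 fold change was 2.63 ± 0.61 (SE, limma adjusted p = 0.00461) in B2B1 and 1.40 ± 0.61 (SE, limma adjusted p = 0.0813) in B1, and the B2B1 call held under each of the 19 alternative settings. Top2a, the topoisomerase that untangles replicated chromosomes, stood at 2.53, 3.84 and 3.57 TPM in B2, 31.3, 12.7 and 14.7 TPM in B2B1 and 4.34, 24.8 and 5.10 TPM in B1. B2B1 lay above B2 by 2.16 ± 0.56 (SE, limma adjusted p = 0.00849) with no overlap, and B1 libraries 1 and 3 lay just above B2. Ncapg, a subunit of the condensin I complex, stood at 0.505, 0.895 and 1.08 TPM in B2, 10.2, 4.52 and 4.18 TPM in B2B1 and 0.932, 5.28 and 1.43 TPM in B1. Its difference was 1.92 ± 0.44 (SE, limma adjusted p = 0.00466) in B2B1 and 0.77 ± 0.44 in B1, where it was not called, and 13.4% of its exonic bases overlap Lcorl on the opposite strand.

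Among the spindle genes Kif11, Kif20a and Tpx2 were called. Kif11, the motor that pushes spindle poles apart, stood at 0.659, 0.835 and 0.561 TPM in B2, 11.3, 3.48 and 3.87 TPM in B2B1 and 1.77, 6.90 and 1.60 TPM in B1. Each peritoneal library lay above each B2 library. B2B1 was higher by 1.94 ± 0.48 (SE, limma adjusted p = 0.00663) and B1 by 1.19 ± 0.48 (SE, limma adjusted p = 0.0644), which missed the threshold but passed it with a pseudocount of 0.1 (1.85) or 0.5 (1.47) and with only the 2 groups compared. Tpx2, which nucleates spindle microtubules and activates Aurora A, stood at 1.07, 0.819 and 1.09 TPM in B2, 7.02, 2.66 and 3.00 TPM in B2B1 and 1.88, 4.42 and 1.45 TPM in B1. Again all peritoneal libraries exceeded all B2 libraries, by 1.30 ± 0.35 (SE, limma adjusted p = 0.0105) in B2B1 and, uncalled, 0.76 ± 0.35 in B1. Kif20a, a motor of the cleavage furrow and midzone, stood at 2.03, 2.08 and 2.36 TPM in B2, 8.37, 4.90 and 4.77 TPM in B2B1 and 2.78, 6.81 and 2.51 TPM in B1. Its difference was 1.12 ± 0.31 (SE, limma adjusted p = 0.0108) in B2B1, and 29.3% of its exonic bases overlap Cdc23, so its reads may be split with that gene. Kif23 (2.75 to 3.29 TPM in B2, 3.33 to 8.90 TPM in B2B1 and 1.86 to 9.10 TPM in B1), a midzone motor, and Nusap1 (1.85 to 2.86 TPM in B2, 4.24 to 9.42 TPM in B2B1 and 1.60 to 7.71 TPM in B1), a spindle microtubule binder, were not called. Nusap1 was called higher in B2B1 without B1 library 2 or with only the 2 groups compared (both 1.03), with median-of-ratios scaling (1.20) and with library weights (0.91). Cenpe, a kinetochore motor, ranged over 0.653 to 0.832 TPM in B2, 1.23 to 2.58 TPM in B2B1 and 0.433 to 2.96 TPM in B1. It was called higher in B2B1 without B1 library 2 (0.57).

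The other tested mitotic kinases and checkpoint genes were not called. Aurkb, the Aurora B kinase of the chromosomal passenger complex, stood at 7.01, 8.01 and 8.70 TPM in B2, 17.1, 9.50 and 9.92 TPM in B2B1 and 6.97, 14.3 and 6.61 TPM in B1. Plk1, polo-like kinase, stood at 1.90, 2.36 and 1.67 TPM in B2, 5.48, 2.59 and 3.01 TPM in B2B1 and 2.11, 4.64 and 2.16 TPM in B1. Birc5, survivin, a partner of Aurkb, stood at 5.65, 5.37 and 4.77 TPM in B2, 14.0, 6.00 and 5.61 TPM in B2B1 and 4.26, 10.8 and 5.10 TPM in B1. In all 3 genes B2B1 library 1 and B1 library 2 were the highest of the 9, and B2B1 libraries 2 and 3 lay within the B2 range or little above it. None was called, with log2 fold changes in B2B1 of 0.52 ± 0.29 (Aurkb), 0.61 ± 0.28 (Plk1) and 0.50 ± 0.36 (Birc5). Aurkb and Plk1 were called higher in B2B1 without B1 library 2 (0.52 and 0.61), and Plk1 also with median-of-ratios scaling (0.77), quantile normalization (0.69) and library weights (0.53). Bub1b (0.999 to 2.54 TPM in B2, 2.74 to 7.69 TPM in B2B1 and 2.04 to 7.29 TPM in B1), a checkpoint kinase-like protein, and Cdc20 (3.25 to 3.77 TPM in B2, 3.63 to 7.13 TPM in B2B1 and 1.62 to 6.65 TPM in B1), the activator of the anaphase promoting complex, were not called. Leaving B1 library 2 out, Bub1b was called higher in B2B1 (0.92) and Cdc20 lower in B1 (−0.72).

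Ube2c, the ubiquitin-conjugating enzyme of the anaphase promoting complex, stood at 5.69, 4.88 and 4.92 TPM in B2, 16.9, 10.9 and 8.40 TPM in B2B1 and 5.25, 12.4 and 4.29 TPM in B1. B2B1 exceeded B2 in every library, by 1.03 ± 0.34 (SE, limma adjusted p = 0.0256), a call lost without B2 library 2 (1.0004) or 3 (1.005) or B2B1 library 1 (0.78) or 2 (1.08), and 22.8% of its exonic bases overlap Tnnc2. The members under the minimum were Bub1, a checkpoint kinase (0.202 to 0.275 TPM in B2, 0.876 to 2.80 TPM in B2B1 and 0.342 to 2.33 TPM in B1), Cenpf, a kinetochore protein (0.231 to 0.278 TPM in B2, 0.813 to 2.65 TPM in B2B1 and 0.346 to 2.37 TPM in B1), and Aurka, the Aurora A kinase. Bub1 and Cenpf had B2B1 library 1 and B1 library 2 on top, whereas Aurka was scattered from 0 to 2.34 TPM and listed at 0 in 4 libraries.

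In B1 library 2 replication and mitosis genes were high together. It was the highest of the 3 B1 libraries for 20 of 22 tested replication genes (all but Cdt1 and Tyms) and 20 of 20 tested mitosis genes, beside 41.9% of all genes tested. Its median difference from the mean of the other B1 libraries was 1.10 (replication) and 1.43 (mitosis) on the log2 scale, beside 0.0272 for all genes. It lay above all 3 B2 libraries for 18 of 22 and 20 of 20 genes (33.8% of all genes tested). Against all 3 B2B1 libraries it was higher for 15 of 22 replication genes but for 2 of 20 mitosis genes, Kif23 and Cenpe, beside 46.1% of all genes tested. In the other 18 mitosis genes it lay below B2B1 library 1.

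B2B1 library 1 showed a like pattern, weaker for replication. It was the highest B2B1 library for 19 of 22 replication genes (all but Cdt1, E2f1 and Mcm2) and 20 of 20 mitosis genes, beside 40.7% of all genes tested. The median difference from the mean of B2B1 libraries 2 and 3 was 0.36 (replication) and 1.07 (mitosis) on the log2 scale, beside 0.0236 for all genes. Across the 42 tested members the differences in B1 library 2 and in B2B1 library 1 had a Pearson r of 0.591 and a Spearman rho of 0.531, and across all 11099 genes the Pearson r was 0.0504. These describe genes and not replicates, since every gene was read in the same 6 libraries. Mki67 (2.32 and 1.26) and Rrm2 (2.22 and 1.66) had large differences in both, Mcm5 and E2f1 mainly in B1 library 2, and Cdt1 and Tyms small ones.

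**Figure D4:**
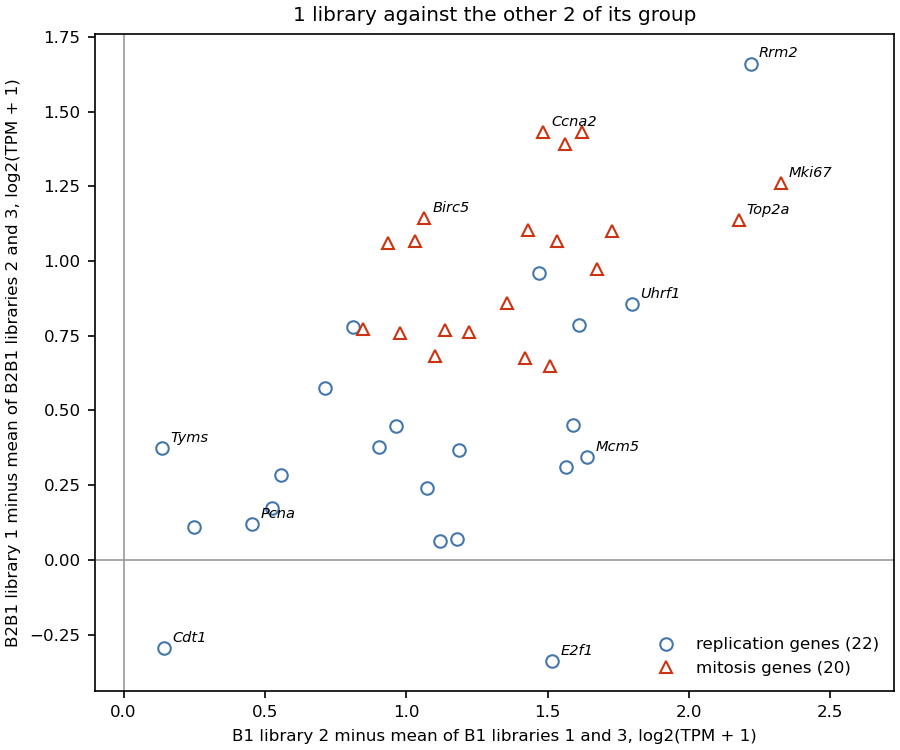
Each point is a tested member, with its difference in B1 library 2 from the mean of B1 libraries 1 and 3 on the x axis and in B2B1 library 1 from the mean of B2B1 libraries 2 and 3 on the y axis, both on the log2(TPM + 1) scale. All 20 mitosis genes (triangles) lie above 0 on both axes, and the replication genes (circles) spread lower on the y axis, with Cdt1 and E2f1 below 0.

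Markers of other cells were read beside these libraries. The 7 macrophage markers summed to 1.15 to 2.15 TPM in B2, 239, 63.4 and 86.6 TPM in B2B1 and 21.1, 45.7 and 43.2 TPM in B1. Lyz2 was at 1.52, 0.954 and 0.424 TPM in B2, 181, 22.3 and 44.5 TPM in B2B1 and 1.22, 30.9 and 21.6 TPM in B1, and Emr1 at 0.432, 0.272 and 0.448 TPM in B2, 52.0, 39.9 and 40.1 TPM in B2B1 and 19.7, 13.6 and 20.9 TPM in B1. In both libraries that stood apart Lyz2 was the highest of its group, by 2.48 (B2B1 library 1) and 2.17 (B1 library 2) over the mean of the others on the log2 scale. Emr1 differed by 0.37 and −0.54. The 7 erythroid markers summed to 7.70, 11.2 and 3.05 TPM in B2, 6.03, 0.990 and 2.31 TPM in B2B1 and 3.31, 15.1 and 0.977 TPM in B1. B2B1 library 1 and B1 library 2 were the highest of their groups for 3 of 3 erythroid genes tested, by a median of 1.04 and 2.04 on the log2 scale. The 8 germinal centre markers, of B cells that cycle fast, summed to 59.2, 48.6 and 54.9 TPM in B2, 129, 87.7 and 106 TPM in B2B1 and 79.1, 28.4 and 77.2 TPM in B1. Of 6 tested, 3 were called higher and 2 lower in B2B1 against B2. Their summed level was highest in B2B1 library 1 and lowest in B1 library 2. Bcl6, which defines that stage, was at 35.7 to 47.1 TPM in B2, 1.61 to 6.09 TPM in B2B1 and 3.70 to 9.35 TPM in B1, and Rgs13 stood at 0.184, 0.399 and 0.842 TPM in B2, 14.0, 2.63 and 4.16 TPM in B2B1 and 4.08, 0.750 and 2.76 TPM in B1. Plasma cell markers summed to 174 to 189 TPM in B2, 315 to 395 TPM in B2B1 and 246 to 324 TPM in B1. Dendritic markers were at 18.3 to 20.2 TPM in B2 and 1.84 to 2.45 TPM in the peritoneal libraries, and NK markers at 12.4 to 16.9 and 0.936 to 2.13 TPM. T cell markers were at 13.1 to 32.2 TPM, neutrophil markers at 2.92 to 5.22 TPM, mast cell markers at 0.69 to 6.42 TPM and mesothelial markers at 0.186 to 0.66 TPM over all libraries, with Msln, Upk3b, Krt19 and Wt1 at 0 throughout. The neutrophil genes Mpo and Elane were at 0 in all peritoneal libraries. The part of other cells in the member values was not tested.

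Other genes of the same machinery were read against the shares of all genes called (21.0% higher and 42.0% lower in B2B1, 18.0% and 33.9% in B1). Of 45 other replication genes, 2 were called higher and 19 lower in B2B1 against B2, and 0 higher and 21 lower in B1 against B2. The lower calls in B2B1 were near the share of all genes. Median-of-ratios scaling gave 8 higher and 15 lower in B2B1 and 1 higher and 16 lower in B1. Over all 11099 genes that scaling gave 3494 higher and 3031 lower in B2B1, and 2843 and 2464 in B1. Among the smallest adjusted p were those of Pold1, the catalytic subunit of polymerase delta (−1.44 ± 0.11 in B2B1, −1.20 ± 0.11 in B1), Rfc2 of the clamp loader (−0.88 ± 0.08, −1.14 ± 0.08), Dck, the deoxycytidine kinase (−1.78 ± 0.17, −1.75 ± 0.17), Cdc7, the kinase that fires origins (−1.49 ± 0.12 in B2B1), and Samhd1, which degrades dNTPs (−0.87 ± 0.09 in B1). Pold1, for example, stood at 107, 93.0 and 113 TPM in B2, 41.6, 37.3 and 34.8 TPM in B2B1 and 39.7, 49.0 and 45.7 TPM in B1. No peritoneal library reached the B2 range. In B2B1 against B1, Dbf4, the activator of Cdc7, was higher (0.96 ± 0.17) and Pold3 lower (−0.32 ± 0.08).

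Of 58 other mitosis genes 49 were tested, with 17 higher and 5 lower calls in B2B1 against B2 and 2 higher and 9 lower in B1 against B2. Over all genes 21.0% were higher and 42.0% lower in B2B1, and 18.0% and 33.9% in B1. With median-of-ratios scaling the counts were 20 and 3 in B2B1, and in B1 they turned to 5 higher and 3 lower. The calls over all 11099 genes moved too, to 3494 higher and 3031 lower in B2B1 and 2843 and 2464 in B1. Racgap1, which with Kif23 forms the centralspindlin complex, stood at 5.04, 4.11 and 4.19 TPM in B2, 48.7, 37.1 and 38.9 TPM in B2B1 and 22.0, 47.8 and 28.4 TPM in B1. All peritoneal libraries lay above all B2 libraries, by 2.96 ± 0.24 (SE, limma adjusted p = 9.71e-06) in B2B1 and 2.56 ± 0.24 (SE, limma adjusted p = 3.33e-05) in B1. Cenpa, the centromeric histone, was higher in B2B1 (1.34 ± 0.30). Smc4 of condensin was lower in both groups (−0.65 ± 0.09 and −0.80 ± 0.09), and Bub3 (−0.28 ± 0.06) and Hjurp (−0.50 ± 0.11) were lower in B1. Cdc25b, a phosphatase that activates Cdk1, was lower in B2B1 than in B2 (−0.74 ± 0.17) and than in B1 (−1.17 ± 0.17), and Bub3 higher in B2B1 than in B1 (0.21 ± 0.06). In B2B1 against B1, the other replication and the other mitosis genes had 1 call in each direction, beside 6.93% higher and 12.1% lower over all genes. If B1 library 2 was left out, 22 other mitosis genes were called higher in B2B1 than in B1 and 1 lower. All 11099 genes then had 1019 higher and 1426 lower calls. Without B2B1 library 1, 9 instead of 17 other mitosis genes were higher in B2B1 than in B2, beside 18.6% of all genes tested.

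Of 31 cell cycle regulators 29 were tested, with 7 higher and 15 lower in B2B1 and 5 higher and 9 lower in B1. The 7 higher calls and the 9 lower calls were near the shares of all genes (21.0% higher in B2B1 and 33.9% lower in B1). Median-of-ratios scaling left 8 lower calls in B2B1, while those over all 11099 genes fell from 4663 to 3031. Wee1, the kinase that holds Cdk1 inactive, stood at 4.16, 4.15 and 3.96 TPM in B2, 21.1, 33.2 and 35.2 TPM in B2B1 and 13.5, 22.0 and 28.2 TPM in B1. It was higher in B2B1 by 2.57 ± 0.26 (SE, limma adjusted p = 3.39e-05), and within B2B1 the library with the most Mki67 had the least Wee1. In B1 the order differed, and the library with the least Wee1 also had the least Mki67. Btg1, an antiproliferative gene, was lower in both (−1.19 ± 0.09 and −0.96 ± 0.09), and so in B2B1 was its relative Btg2 (−0.75 ± 0.08, and −0.52 ± 0.08 against B1). E2f6, a repressor of the E2F family, was higher in both (0.82 ± 0.09 and 0.88 ± 0.09). In B1, E2f5 was lower (−1.08 ± 0.11) and Rb1, the retinoblastoma gene, higher (0.81 ± 0.09), and Fzr1, an activator of the anaphase promoting complex, was higher in B2B1 than in B1 (0.30 ± 0.07).

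Of 20 genes of S phase chromatin and repair 19 were tested, with 5 higher and 4 lower in B2B1 and 3 higher and 3 lower in B1. The higher calls were near the shares of all genes, 21.0% and 18.0%. The histone variant gene H2afz stood at 199, 192 and 183 TPM in B2, 357, 399 and 476 TPM in B2B1 and 256, 293 and 259 TPM in B1. Its log2 fold change was 1.09 ± 0.10 (SE, limma adjusted p = 2.42e-05) in B2B1 against B2, 0.60 ± 0.10 (SE, limma adjusted p = 0.00509) in B2B1 against B1 and 0.49 ± 0.10 (SE, limma adjusted p = 0.00371) in B1 against B2, with no overlap between groups. Tuba1b, an alpha tubulin gene, was higher in B2B1 (0.86 ± 0.17), and the cohesin genes Smc1a and Smc3 were lower in B2B1 (−0.53 ± 0.08 and −0.53 ± 0.08) and in B1 (−0.36 ± 0.08 and −0.35 ± 0.08), as was Hmgb1 in B1 (−0.31 ± 0.08). Without B1 library 2 the B1 counts were 3 higher and 8 lower, beside 18.1% and 35.4% of all genes tested. Without B2B1 library 1 the B2B1 counts were 2 higher and 4 lower, beside 2063 and 4382 of 11099 genes.

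**Figure D5:**
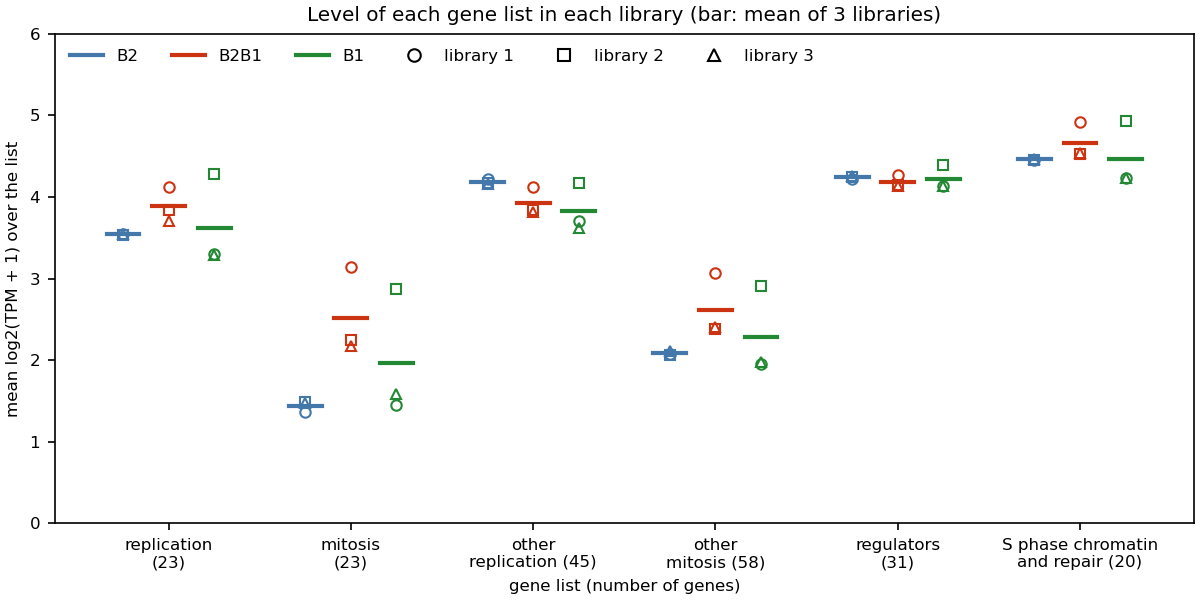
Mean log2(TPM + 1) over each gene list in each library, with symbols for library 1, 2 and 3 and a bar for the group mean. The mitosis list is at 1.37 to 1.49 in B2 and 2.17 to 3.14 in B2B1, and B2B1 library 1 and B1 library 2 are the top points of their groups in every list, with the narrowest spread of the peritoneal libraries in the regulators.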

How the data were processed

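PolyA RNA was sequenced from TruSeq RNA v2 libraries after RNeasy Micro extraction, per the labels' protocols. CASAVA 1.8.2, kallisto and the build mm10 are named in the submitters' processing notes, while kallisto's version and transcript set were not found there. The authors deposited gene-level TPM, which carry no depth, so no counting interval was given. No pair of libraries was identical (0 of 36). The model on log2(TPM + 1) used limma 3.58.1 under R 4.3.3, with moderated variances that follow a mean trend, in one model of 3 group means over 9 libraries with 6 residual degrees of freedom and no covariate. P-values are two-sided. The procedure was tested on simulated data with independent noise for each gene, without shifts shared by many genes of a library. Alternatives were other pseudocounts, minimum levels, scalings, library weights, a replicate block, fits of only the groups compared, and libraries left out. Log2 values are computed here and not the authors'. No exact permutation test was run, since its smallest p here is 0.1. A smaller deposited signature table holds none of the 46 genes and was not used.

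Members, lists and tests were chosen with earlier results of these data known. Library values were given for every called member and for 20 listed by name, called or not, for other members by range, and from each further list the up to 4 genes with the smallest adjusted p. Some marker genes are not reported here. Promoters were from RefSeq (GRCm38.p6) and exon overlaps from GENCODE M21. Python 3.11.15 and matplotlib 3.10.9 made the figures.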

Additional observations from a re-analysis of the deposited data

How the results depend on the processing

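Of the 19 alternatives, the minimum mean of 5 TPM left members below it untested. Under all alternatives that tested them, 4 of 5 called members in B1 against B2 kept their call. The counts were 14 of 20 in B2B1 against B2 and 0 of 2 in B2B1 against B1. No called member changed direction. The call counts below join higher and lower calls. Replication genes called in B1 against B2 numbered 5, and 9 with library weights. They numbered 16 without the pair B2B1 library 1 and B1 library 2, an alternative chosen after seeing the data. With single libraries left out they numbered 4 to 13. Over all 11099 genes that comparison had 2003 higher and 3762 lower calls, and 2152 and 4190 with library weights. Without the pair it had 2107 and 4105, and without B1 library 2 alone 2014 and 3928. Mitosis genes called in that comparison numbered 0, 1 with a pseudocount of 0.1 or 0.5 or with only the 2 groups compared (Kif11), 7 with both libraries left out, and 0 to 2 with single libraries left out. In B2B1 against B2, replication calls went from 9 to 15 with both libraries left out and 8 to 13 with single ones. The mitosis calls went from 11 to 3 with a minimum mean of 5 TPM, where fewer members were tested, and 7 to 16 with single libraries left out. Over all 11099 genes the calls were 2332 higher and 4663 lower, and 2274 and 4765 with both libraries left out. With the minimum mean of 5 TPM they were 1915 and 3981 of 9070 genes. In B2B1 against B1, replication calls numbered 2, 0 with no minimum or only the 2 groups compared, 1 with median-of-ratios scaling, quantile normalization or the replicate block, 14 with both libraries left out, and 0 to 13 with single ones. Mitosis calls there numbered 0, 1 with library weights, 15 with both left out and 0 to 11 with single ones. Over all 11099 genes B2B1 against B1 had 769 higher and 1339 lower calls, and 775 and 1315 with library weights. With only the 2 groups compared it had 448 and 681. With both left out it had 882 and 1295, and without B1 library 2 alone 1019 and 1426. The causes were not tested. Uncalled values that turned were those of Cdc45 (−0.35) and Kif23 (−0.38) in B1 against B2, lower and called with both libraries left out. No pairing of the libraries by replicate number was seen, though a weak one could be missed with so few libraries. Same-numbered libraries of different groups deviated with r of −0.0584 to 0.123, 1 of 9 over 0.1. A library correlated best with its own number in 5 of 18 cases. With the number as a replicate block, Tyms in B1 against B2 (−0.39) and Cdt1 in B2B1 against B1 (−0.43) lost their calls and Tk1 in B2B1 against B2 gained one (−0.62).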
